A study of Drosophila melanogaster with 4 samples.

Results

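The spliceosome subunits described here are 32 *Drosophila melanogaster* genes, taken by gene symbol from the 14862 genes and unnamed transcripts tested. The rule took symbols with Prp, Sf3a, Sf3b or LSm followed by a digit, symbols that start with snRNP or U2af, and the Sm proteins named by 1 letter and at most 1 digit. No measured value entered the rule, but the gene set was chosen with earlier results of these data known. It found 12 Prp genes, 7 SF3 genes, 6 Sm genes, 3 LSm genes, 2 snRNP genes and 2 U2af genes on 43 probes, and all 43 probes passed the filter on dim signals.

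Whole embryos that ectopically express mir-3, a microRNA, were set against wild-type embryos of w1118, a white-eyed laboratory strain, on 4 two-colour Agilent arrays. The mir-3 ectopic embryos were homozygous for the ectopic expression and were on the same w1118 background. Both genotypes were collected over 2 h at 25 °C and were 6 to 8 h old when RNA was taken. There were 3 biological replicates of each genotype, and replicate 1 was hybridised a second time with the dyes exchanged. The promoter or driver of the ectopic expression, and the number of lines it was made from, are not given in the sources used here.

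The spliceosome removes introns from pre-mRNA in steps, and its subunits act at different ones. Sm proteins form a ring on the U1, U2, U4 and U5 small nuclear RNAs, and LSm proteins form a related ring on U6; a cytoplasmic LSm ring that contains LSm1 promotes mRNA decapping. U1 proteins help recognise the 5′ splice site, the U2af heterodimer reads the end of the intron, and the SF3a and SF3b complexes hold U2 at the branch point. Prp proteins, named after yeast mutants in pre-mRNA processing, include tri-snRNP components, helicases, a kinase and factors of the catalytic steps. Embryos of this age carry a mixture of maternal and zygotic mRNA for such genes.

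Each array held 45020 spots, and the share of non-control spots flagged well above background was 57.6% to 64.7% for mir-3 ectopic RNA and 59.1% to 66.1% for w1118 RNA. No spot was saturated. Gene ratios correlated at r = 0.941 to 0.945 among the 3 arrays of the same dye orientation and at r = 0.752 to 0.800 between these and the dye-swap array (Pearson's r across 14860 genes, as a description). Spearman's rank correlation was 0.884 to 0.891 among those 3 arrays and 0.535 to 0.591 with the dye-swap array. The dye-swap array thus stands apart, and its values are printed separately below. Every ratio is log2 of mir-3 ectopic over w1118, with its direction taken from the labelled dyes; it is opposite in sign to the authors' value table. The markers of embryonic mesoderm, nervous system and ectoderm were above background in both channels of all arrays, 5 of 5 in each list, as were 2 of 6 adult or ovary genes, Yp3 and ninaE.

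Some tissue markers differed between the genotypes too, at a limma adjusted p under 0.05 that 48.8% of all genes tested passed. These calls are therefore not read as a change of tissue. Of the mesoderm markers, tin was lower in mir-3 ectopic embryos at -0.73 (adjusted p = 0.000125) and bap at -0.18 (adjusted p = 0.0141), while Mef2 was higher at 0.16 (adjusted p = 0.0176). Of the ectoderm markers, en (-0.25), hh (-0.21) and grh (-0.16) were lower (adjusted p = 0.00316 to 0.0332). Of the nervous system markers 0 were called by limma, and 3 had an unadjusted p under 0.05. Of the adult or ovary genes, Yp3 was higher at 0.19 (adjusted p = 0.014), as was Yp1 at 0.48 (adjusted p = 0.000875), which was not above background throughout. The part of these differences in the results below was not tested.

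By limma's moderated test of the 3 replicates, with a Benjamini-Hochberg adjusted p under 0.05 over all 14862 genes, 12 of the 32 spliceosome genes were higher in mir-3 ectopic embryos and 5 were lower. The remaining 15 did not pass. Replicates 2 and 3 had mir-3 ectopic RNA in Cy3 only. Dye is thus balanced in replicate 1 alone, and genotype and dye are not fully told apart in these calls. Across all genes tested 48.8% were called, 24.3% higher and 24.5% lower, so that the share of spliceosome genes called was near the background. The median ratio of the 32 genes was 0.01, against -0.0018 over all genes tested, and the median of their absolute ratios was 0.147, against 0.138. Members of a class differed in sign in the Sm, U2af, snRNP, SF3 and Prp classes. Of the 17 called genes, 16 had fold differences under 1.5 and the other was LSm7.

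**Figure D1:**
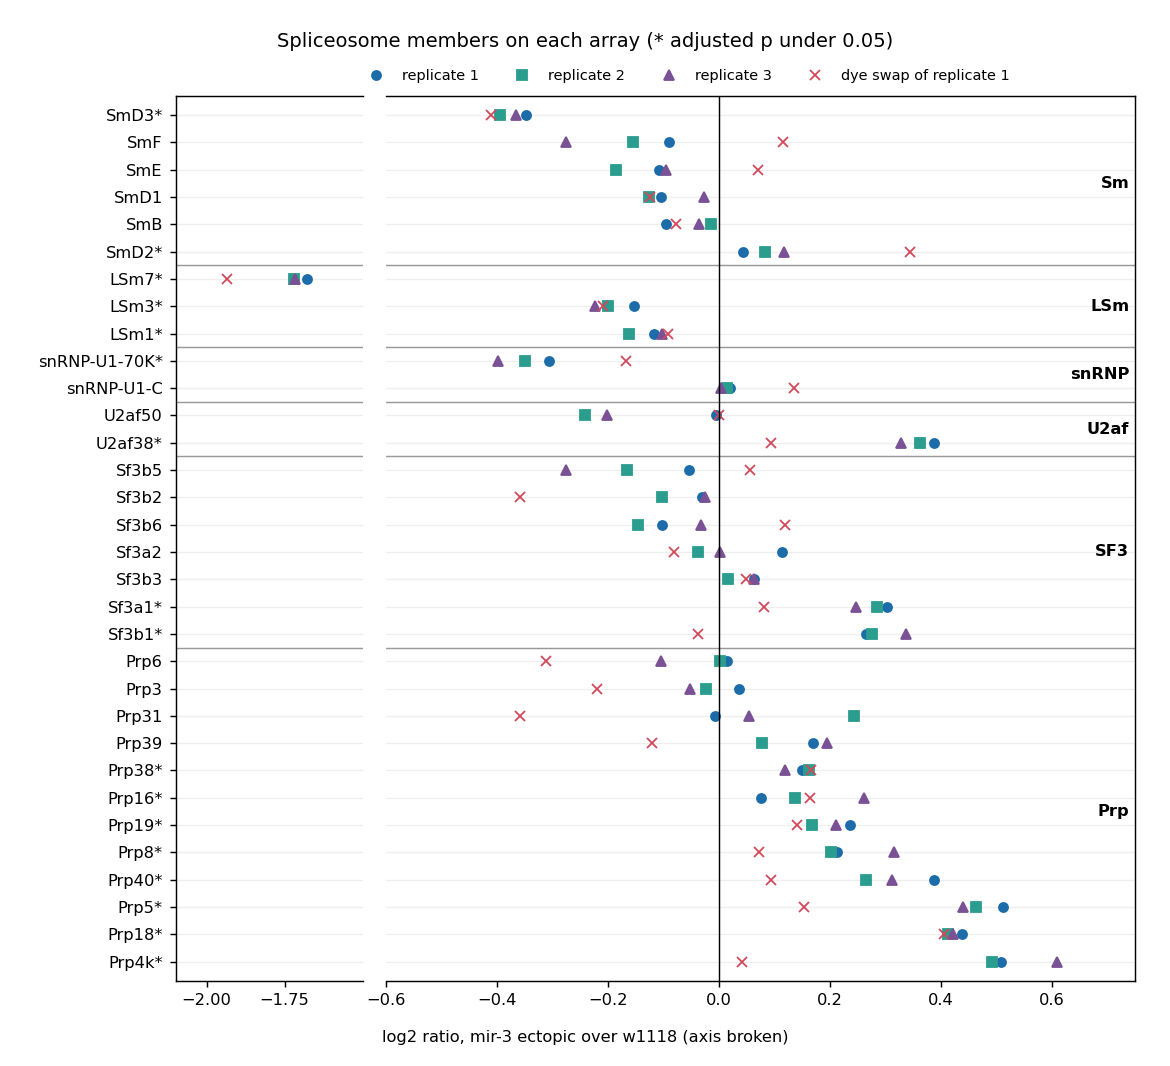
Log2 ratio of mir-3 ectopic over w1118 (x axis, broken) for each of the 32 spliceosome genes (y axis, grouped by class), with a symbol for each of the 4 arrays; an asterisk marks an adjusted p under 0.05. LSm7 lies between -1.93 and -1.68 on all arrays, the called Prp genes lie to the right of 0, and the crosses of the dye swap often lie apart from the other symbols.

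All 3 LSm genes that the rule took were lower in mir-3 ectopic embryos, where 24.5% of all genes tested were. Any LSm gene under another symbol is not covered, so the rings as a whole are not described. LSm7 gave by far the largest difference of the whole set. LSm7, a subunit of both the nuclear and the cytoplasmic ring, had log2 normalised signals of 10.42, 10.33 and 10.33 in mir-3 ectopic embryos of replicates 1, 2 and 3 and 10.32 on the dye swap, against 12.10, 12.05, 12.04 and 12.25 in w1118 embryos. The 2 genotypes did not overlap on any array. Its log2 ratio was -1.75 ± 0.05 (SD, n = 3), with a 95% confidence interval of -1.85 to -1.64 and an adjusted p of 4.78e-07, which is a 3.36-fold lower signal. It ranked 46 of 14862 from the lowest ratio. Its 2 probes gave -1.79 and -1.71. Only 1.12% of the genes tested were called lower by at least 2-fold, and LSm7 was the only spliceosome gene among them. The RNA came from whole embryos, in which fewer cells with a transcript and less of it per cell cannot be told apart.

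The genes that flank LSm7 on chromosome 2L did not share its value, as a look at the neighbours chosen after its value was seen shows. ChLD3, on one side, had a log2 ratio of -0.32 (adjusted p = 0.000758), and BuGZ, on the other, had 0.15 (adjusted p = 0.0244). One gene further out, glu had 0.68 (adjusted p = 6.84e-05) and yellow-b had -0.05 (adjusted p = 0.51).

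LSm3, also a subunit of both rings, gave ratios of -0.15, -0.20 and -0.22 in replicates 1, 2 and 3 and -0.21 on the dye swap. It was lower on every array, by -0.20 ± 0.02 (SD, n = 3; adjusted p = 0.00627). LSm1, which marks the cytoplasmic ring, gave -0.12, -0.16 and -0.10 in the replicates and -0.09 on the dye swap. Its ratio of -0.12 ± 0.03 (SD, n = 3; adjusted p = 0.0455) was near the threshold. Without replicate 3 the adjusted p was 0.0509 for LSm3 and 0.14 for LSm1, and without replicate 2 it was 0.271 for LSm1. With LSm7 left out, the median of the other LSm genes was -0.16.

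The Sm genes gave a mixed picture: SmD3 was lower, SmD2 was higher by a call that depended on the processing, and the other 4 did not pass the test. The SmG gene stands under another symbol in the gene table and is not covered by the rule. SmD3, a core protein of the ring, had log2 signals of 13.42, 13.60 and 13.61 in mir-3 ectopic embryos of replicates 1, 2 and 3 and 13.41 on the dye swap, against 13.77, 14.00, 13.97 and 13.82 in w1118 embryos. On each array the mir-3 ectopic signal was the lower, and no mir-3 ectopic signal reached the lowest w1118 signal. Its ratio was -0.38 ± 0.01 (SD, n = 3; adjusted p = 0.000356), and its probes gave -0.43 and -0.33.

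SmD2, the partner of SmD1 in the ring, had ratios of 0.04, 0.08 and 0.12 in replicates 1, 2 and 3, and 0.34 on the dye swap. The dye-swap value was the highest of the 4. The mean of 0.13 ± 0.06 (SD, n = 3) had an adjusted p of 0.0441, and the call was kept under 3 of 16 alternative settings; without replicates 1, 2 and 3 in turn, the adjusted p was 0.0953, 0.107 and 0.143. SmF, SmE, SmD1 and SmB, the rest of the ring, had ratios of -0.14, -0.10, -0.09 and -0.05, none past the threshold (adjusted p = 0.0959 to 0.407). SmF and SmE were below 0 in the 3 arrays of the same orientation and above 0 on the dye swap. Without replicate 1 both passed, at -0.22 (adjusted p = 0.0084) for SmF and -0.14 (adjusted p = 0.0384) for SmE. That fit holds only replicates 2 and 3, both with mir-3 ectopic RNA in Cy3, so genotype and dye cannot be told apart in it.

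Of the 2 U1-specific proteins, one was lower and the other gave no call. The U1-70K protein, snRNP-U1-70K, which contacts the U1 RNA and SR proteins, had log2 signals of 13.68, 13.53 and 13.57 in mir-3 ectopic embryos of replicates 1, 2 and 3 and 13.64 on the dye swap, against 13.99, 13.88, 13.97 and 13.81 in w1118 embryos. The genotypes did not overlap, and the dye swap gave the smallest difference, -0.17. The mean ratio was -0.33 ± 0.08 (SD, n = 3; adjusted p = 0.00141). snRNP-U1-C, which stabilises pairing of U1 with the 5′ splice site, had 0.03 (adjusted p = 0.564, 95% confidence interval -0.07 to 0.13).

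The 2 U2af subunits did not give the same call either. U2af38, the small subunit, which reads the AG at the intron's end, had log2 signals of 14.53, 14.39 and 14.39 in mir-3 ectopic embryos of replicates 1, 2 and 3 and 14.40 on the dye swap, against 14.14, 14.03, 14.06 and 14.31 in w1118 embryos. It was higher on every array, by 0.31 ± 0.06 (SD, n = 3; adjusted p = 0.00137). U2af50, the large subunit, which binds the polypyrimidine tract, had ratios of -0.01, -0.24 and -0.20 in replicates 1, 2 and 3 and -0.0004 on the dye swap. Both arrays of replicate 1 were at 0 while the others were below it, and the mean of -0.15 ± 0.13 (SD, n = 3) did not pass (adjusted p = 0.065). Without replicate 1 it was -0.22 (adjusted p = 0.00475), in a fit of 1 dye orientation where genotype and dye cannot be told apart.

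**Figure D2:**
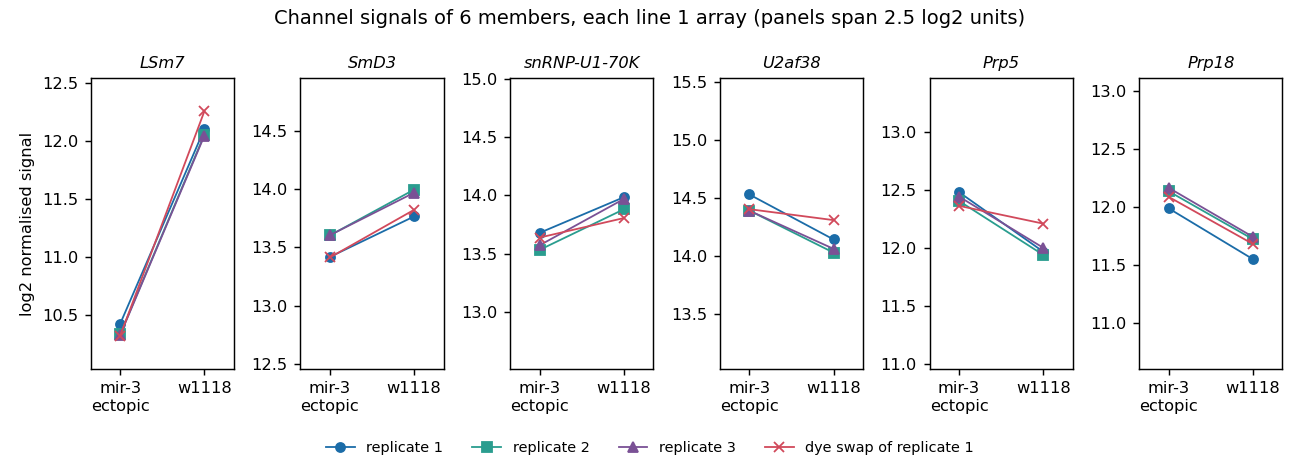
Log2 normalised channel signal (y axis, the same span in each panel) in mir-3 ectopic and w1118 embryos (x axis) for the 6 genes called under all alternatives other than median centring; each line joins the 2 channels of 1 array. The LSm7 signals are 10.32 to 10.42 in mir-3 ectopic embryos, against 12.04 to 12.25 in w1118 embryos, the lines of SmD3 and snRNP-U1-70K climb by less towards w1118, and those of U2af38, Prp5 and Prp18 descend.

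Among the SF3 genes, Sf3a1 and Sf3b1 were higher in mir-3 ectopic embryos and the other 5 did not pass, so that 28.6% were higher, near the 24.3% of all genes tested; 0 were lower by limma's adjusted p, and 1 was at an unadjusted p under 0.05. Sf3a1, a subunit that joins SF3a to U2, had ratios of 0.30, 0.28 and 0.25 in replicates 1, 2 and 3 and 0.08 on the dye swap. All arrays were above 0, with the dye swap the lowest, and the mean was 0.24 ± 0.05 (SD, n = 3; adjusted p = 0.00347). Sf3b1, the scaffold of SF3b around the branch point, had 0.27, 0.28 and 0.34 in replicates 1, 2 and 3, and -0.04 on the dye swap. It was the only called spliceosome gene whose sign differed between arrays. Its mean was 0.24 ± 0.12 (SD, n = 3; adjusted p = 0.00898), and without replicate 3 it was 0.19 (adjusted p = 0.0693). Both genes have 2 probes, of which the dimmer gave the larger ratio: 0.34 against 0.15 for Sf3a1 and 0.33 against 0.15 for Sf3b1.

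The SF3 genes that did not pass were Sf3b5 at -0.15, Sf3b2 at -0.11, Sf3b6 at -0.06, Sf3a2 at -0.01 and Sf3b3 at 0.05, with adjusted p of 0.077 to 0.907. Sf3b6 sits beside the branch-point adenosine, and Sf3b3 and Sf3b5 form part of the SF3b core. Sf3b5 passed without replicate 1, at -0.22 (adjusted p = 0.007), in a fit of 1 dye orientation where genotype and dye cannot be told apart. Of the 2 Sf3b3 probes, the dimmer was above background in both channels on fewer than 4 arrays.

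The Prp genes were the class with the most higher calls: 8 of 12 were higher in mir-3 ectopic embryos, where 24.3% of all genes tested were, and 4 did not pass. By limma's test 0 were lower, also at an unadjusted p under 0.05. Their median ratio was 0.18, and it was 0.15, 0.19 and 0.24 in replicates 1, 2 and 3. The number of Prp genes above 0 was 11, 11 and 10 on the arrays of replicates 1, 2 and 3 and 8 on the dye swap, where the median was 0.08. The count depended on the setting: 4 of the 12 were higher from the processed signals, where the median was 0.0943 and 28.6% of all genes tested were higher. The authors' value table holds almost the same ratios and so also gave 4 (28.6%). The count was also 4 without replicate 3 (17% of all genes tested) and 3 with the dye swap alone for replicate 1 (15%) or with the channels unpaired (16%).

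Prp18, a factor of the second catalytic step, gave the most even values, with log2 signals of 11.99, 12.13 and 12.16 in mir-3 ectopic embryos of replicates 1, 2 and 3 and 12.09 on the dye swap, against 11.55, 11.72, 11.74 and 11.68 in w1118 embryos. Every mir-3 ectopic signal was above every w1118 signal, and the ratio was 0.42 ± 0.01 (SD, n = 3; adjusted p = 0.00022). Prp5, a DEAD-box ATPase that remodels U2 before it binds the branch point, had log2 signals of 12.48, 12.40 and 12.44 in mir-3 ectopic embryos and 12.36 on the dye swap, against 11.97, 11.94, 12.00 and 12.21 in w1118 embryos. The genotypes did not overlap, and the ratio was 0.41 ± 0.07 (SD, n = 3; adjusted p = 0.000419). Prp4k, the kinase of the tri-snRNP, had ratios of 0.51, 0.49 and 0.61 in replicates 1, 2 and 3, and 0.04 on the dye swap. The dye swap was thus far below the other arrays, and the mean was 0.46 ± 0.17 (SD, n = 3; adjusted p = 0.00133). When dye entered the fit the ratio was 0.29 (adjusted p = 0.000678), with both arrays of replicate 1 counted as separate samples.

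The other called Prp genes were higher by 0.15 to 0.27. Prp40, a U1-associated protein that bridges the intron's ends in yeast, had 0.27 ± 0.04 (adjusted p = 0.00183). Prp8, the large U5 protein at the catalytic centre, had 0.22 ± 0.09 (adjusted p = 0.00871), and Prp19, the ubiquitin ligase of the complex that bears its name, had 0.19 ± 0.02 (adjusted p = 0.00812). Prp16, the helicase that acts between the catalytic steps, had 0.17 ± 0.08 (adjusted p = 0.0203), and Prp38, needed for activation of the spliceosome in yeast, had 0.15 ± 0.02 (adjusted p = 0.0232; SD, n = 3 for each). All 5 were above 0 on each of the 4 arrays. Prp8, Prp19, Prp16 and Prp38 lost their calls without replicate 3 (adjusted p = 0.0711, 0.0618, 0.147 and 0.0835), and Prp16 and Prp38 also without replicate 2 (adjusted p = 0.0592 and 0.144).

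The Prp genes that did not pass were Prp39 at 0.10, Prp31 at 0.04, Prp3 at -0.06 and Prp6 at -0.08 (adjusted p = 0.134 to 0.71). Prp3, Prp6 and Prp31 are proteins of the U4/U6.U5 tri-snRNP, and Prp39 is associated with U1. Prp31 was the most variable member, with -0.01, 0.24 and 0.05 in replicates 1, 2 and 3 and -0.36 on the dye swap. The 3 probes of Prp39 gave 0.02 to 0.18.

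**Figure D3:**
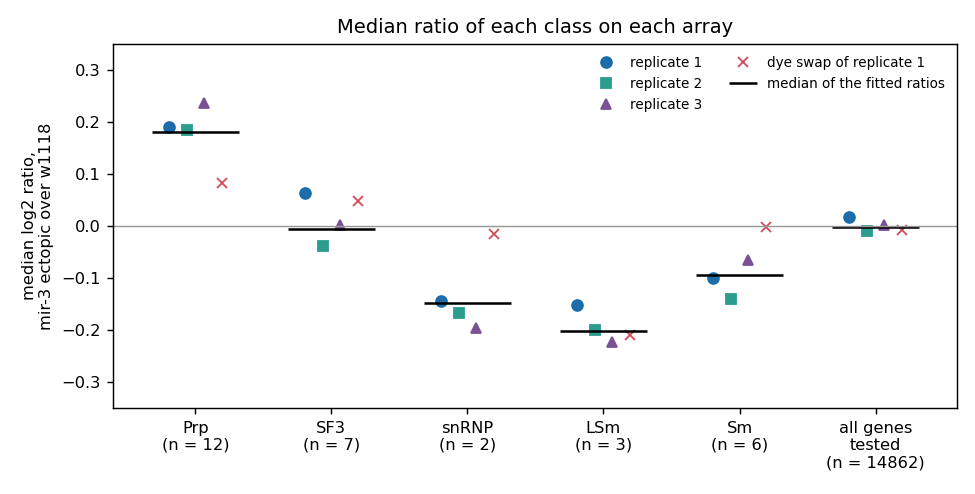
Median log2 ratio of mir-3 ectopic over w1118 (y axis) for each class and for all genes tested (x axis), with a symbol for each array and a bar for the median of the fitted ratios. The Prp bar is at 0.18, the SF3 bar is near 0, and the snRNP, LSm and Sm bars are at -0.15, -0.20 and -0.09; the U2af pair is not drawn.

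Set side by side, the Prp median lay above that of the ring proteins, although single genes overlapped: Prp6 (-0.08) and Prp3 (-0.06) lay below SmB (-0.05), and SmD2 (0.13) lay above Prp39 (0.10) and Prp31 (0.04). The 9 Sm and LSm genes had a median of -0.12, with 1 gene higher, 4 lower and 4 not called, so the Prp median was 0.30 above theirs. That gap was 0.25, 0.35 and 0.34 in replicates 1, 2 and 3, 0.17 on the dye-swap array alone, 0.26 with the dye as a term and 0.29 from the processed signals. The SF3 median was -0.0067, which is 0.19 below the Prp median, but the order of these classes turned on the processing: from the processed signals of the scanner software the Prp median was below the SF3 median by 0.03, and on the dye swap it was above by 0.03. The snRNP pair had a median of -0.15, which differed from that of the Sm and LSm genes by -0.02, and this gap changed sign between replicates. These are descriptions of classes of few genes, and the differences between class medians were not tested.

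The ratios of the genes called higher were often lowest on the dye-swap array. As the dyes were exchanged on 1 array only, dye cannot be told apart from other differences of that array. The part of dye in the calls was examined only by the fits below. Of the 12 genes called higher, 9 had their lowest ratio on the dye-swap array, and 10 had a smaller ratio when the dye was a term in the fit. Both counts turn on that array. They were not made over all genes called higher, so nothing particular to these genes is read from them. The median absolute dye coefficient was 0.0996 over the 32 genes, against 0.0674 over all genes tested. With the dye as a term all 17 calls were kept, and Prp3, Prp6, Sf3b2 and SmD1 were called lower as well. Thus 12 genes were higher and 9 lower (26.9% and 27.5% of all genes tested). That fit took the 4 arrays as separate samples, although replicate 1 is the same RNA on 2 of them. Its dye term rests on the 1 swapped array, so its adjusted p are not on the footing of the main fit. Slide 1 held both arrays of replicate 1 and slide 2 held replicates 2 and 3. For each called gene the mean ratios of slide 1 and slide 2 shared their sign, as for 99.4% of all called genes. Nothing particular to these genes is read from that. Within slide 1, the 2 arrays of Sf3b1 differed in sign (0.27 and -0.04). Without the dye-swap array, a setting chosen after seeing the data, 12 genes were higher and 9 lower (30% and 28.7% of all genes tested). Prp39 became higher (0.15, adjusted p = 0.0141), and SmF, SmE, Sf3b5 and U2af50 became lower (adjusted p = 0.0122 to 0.0385). SmD2 was no longer called (adjusted p = 0.0912). The arrays left in this setting all had mir-3 ectopic RNA in Cy3, so genotype and dye cannot be told apart in it.

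The number of calls varied with the libraries and the signal that were used, as it did over all genes tested. Without replicate 3 it was 6 higher and 3 lower (17% and 15% of all genes tested). Without replicate 1, which leaves 1 dye orientation, it was 11 higher and 9 lower (27% and 28.6%). With the dye swap alone for replicate 1, 4 genes were higher (15%), and with the channels of an array unpaired, 5 (16%). From the processed signals 7 genes were higher (28.6%), as from the authors' value table (28.6%), which holds almost the same ratios. There Prp8, Prp16, Prp19, Prp38 and SmD2 lost their calls.

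**Figure D4:**
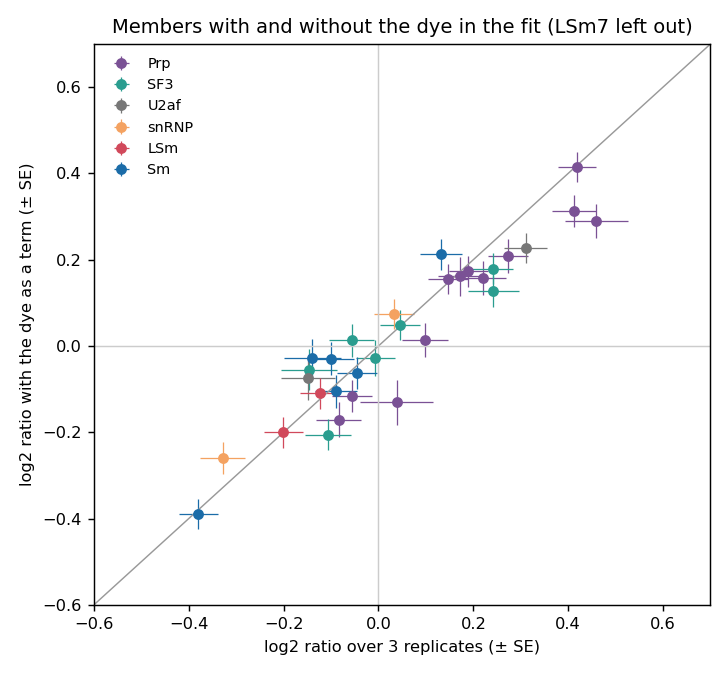
Log2 ratio when dye entered the fit as a term (y axis, ± SE) against the log2 ratio over 3 replicates (x axis, ± SE), mir-3 ectopic over w1118, for 31 spliceosome genes coloured by class; the line marks equal values and LSm7, at -1.82 and -1.75, is left out. Prp4k and Prp5 lie below the line, at 0.29 and 0.31, while Prp18 stays on it at 0.41.

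The probes of a gene went the same way. Of the 32 genes, 10 had more than 1 probe; in all 10 the probes shared their sign, and none had probes called in opposite directions. The other 22 genes rest on 1 probe each. Tested singly, 14 of the 43 probes were higher and 7 lower, where 48% of all kept probes were called in either direction. Of the 32 genes, 16 (50%) were called with the same sign on the 4 arrays, against 42.6% of all genes tested; among called genes these were 94.1% of the spliceosome genes and 87.3% of all, shares close to each other. The genes called in the same direction under all 15 alternatives other than median centring were LSm7, SmD3, snRNP-U1-70K, U2af38, Prp5 and Prp18. These are 6 of the 32, a share near the 19.9% of all genes tested that met the same condition. The alternatives overlap, as the processed signals and the authors' value table hold almost the same ratios. Median centring in place of loess left 0 of the 32 called by limma's adjusted p (0.552% of all genes tested) and 1 at an unadjusted p under 0.05, and the 17 ratios kept their sign.

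The 32 genes are spread over the genome, with 8 on chromosome arm 2L, 6 on 2R, 8 on 3L, 7 on 3R and 3 on X. Both pairs of near neighbours among them had ratios of opposite sign. Prp40 and Sf3b2 are adjacent protein-coding genes on 2L and had ratios of 0.27 for Prp40, which passed, and -0.11 for Sf3b2, which did not. Prp8 and SmD3 lie 4 genes apart on 2R and were called in opposite directions, at 0.22 and -0.38.

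Other splicing genes, listed by complex, gave 29 higher, 15 lower and 35 not called among 79 measured, with a median of 0.09; 36.7% were higher and 19% lower, against 24.3% and 24.5% of all genes tested. The lists were written with earlier results of these data known, so their shares are given as a description only. Some genes of the list of Prp19 complex and catalytic step factors, such as Hel25E, are only loosely placed. That list had 8 of 13 higher (61.5%), 1 lower and a median of 0.25. Its higher genes included Cwc25, a first-step factor, at 0.58 (adjusted p = 9.21e-05), Hel25E, the UAP56 helicase, at 0.39 (adjusted p = 0.000404), ncm, the CWC22 protein, at 0.39 (adjusted p = 0.000627) and pea, the Prp22 helicase, at 0.30 (adjusted p = 0.00112). The U snRNP proteins that the name rule does not take had 4 of 9 higher (44.4%) and 3 lower (33.3%), with a median of 0.13 that was -0.10 on the dye swap. Brr2, the U5 helicase that unwinds U4 from U6, was higher at 0.33 (adjusted p = 0.00178), as was U4-U6-60K at 0.30 (adjusted p = 0.00109), whereas hoip, which binds the U4 RNA, was lower at -0.49 (adjusted p = 0.00066). The fourth gene of this list named by rank, Saf-B, a nuclear scaffold protein and no subunit of a snRNP, had 0.26 (adjusted p = 0.0102).

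A list of snRNP assembly genes, in which some such as SmydA-1 are only loosely placed, had 5 of 12 (41.7%) higher. By limma's adjusted p 0 were lower (1 lower at an unadjusted p under 0.05), and the median was 0.10. The total is below the 48.8% called over all genes tested. The higher genes were led by rig (the Gemin5 protein) at 0.93 (adjusted p = 4.70e-05), icln, the chaperone of Sm proteins, at 0.48 (adjusted p = 0.0011), Gem2 at 0.41 (adjusted p = 0.000524) and Smn at 0.20 (adjusted p = 0.0126). The U7 snRNP carries 2 LSm-type proteins whose symbols the name rule does not take, and both were higher: Lsm11 at 0.51 (adjusted p = 9.91e-05) and Lsm10 at 0.29 (adjusted p = 0.00166). In the same list of 7 histone pre-mRNA processing genes, 57.1% of which were called, Slbp, the stem-loop binding protein, was lower at -0.43 (adjusted p = 0.000346) and Cpsf73, the endonuclease, at -0.26 (adjusted p = 0.00284), and the other 3 did not pass.

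The regulators of splice site choice were called about as often as all genes tested, of which 48.8% were called. Of 13 genes listed as SR proteins and kinases, some such as mub only loosely, 3 were higher and 4 lower (53.8% in all), with a median of 0.01. SC35 was lower at -0.42 (adjusted p = 0.000689), while Srrm1 at 0.27 (adjusted p = 0.00244), the kinase Doa at 0.24 (adjusted p = 0.00272) and Srp54 at 0.17 (adjusted p = 0.0143) were higher. Of 19 hnRNP proteins and other regulators, 5 were higher and 4 lower (47.4% in all), with a median of -0.03. These included heph, the polypyrimidine tract binding protein, at 0.38 (adjusted p = 0.000373), sqd at 0.28 (adjusted p = 0.00141) and Sxl, the sex-determination switch, at -0.23 (adjusted p = 0.00824) with 9 probes from -0.57 to 0.11. Of 7 exon junction complex genes 42.9% were called. The core subunit mago was lower at -0.70 (adjusted p = 3.29e-05). Upf3, a nonsense-mediated decay factor, at 0.24 (adjusted p = 0.00371) and Acn at 0.14 (adjusted p = 0.0263) were higher. The 3 probes of Acn differed in sign, from -0.11 to 0.37.

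**Figure D5:**
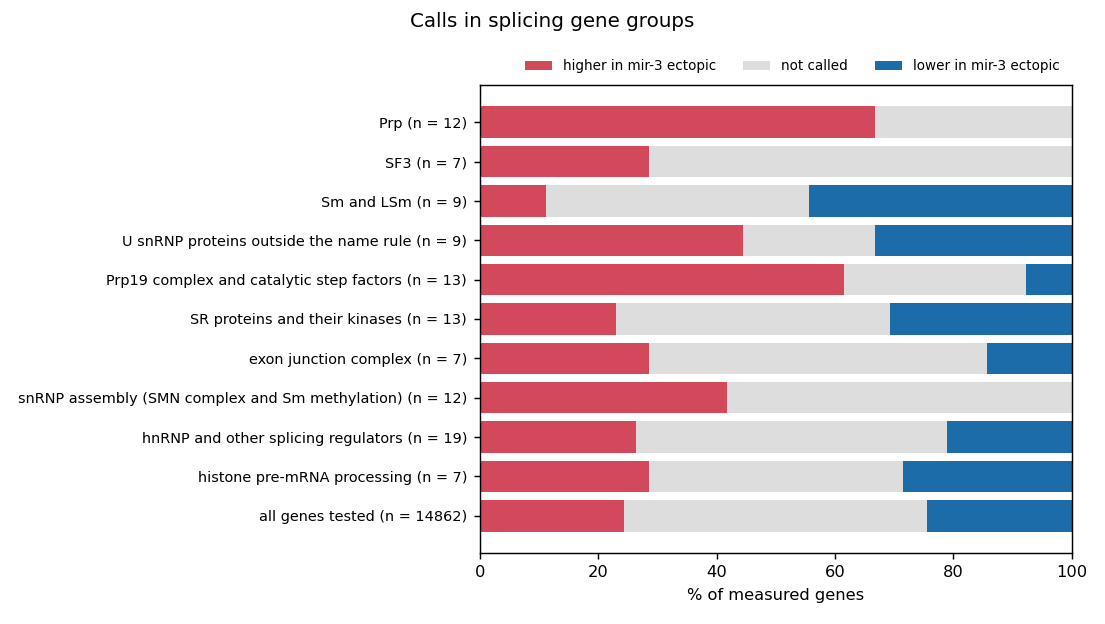
Percentage of measured genes called higher, not called and called lower in mir-3 ectopic embryos (x axis) for the classes of the spliceosome set, the other splicing lists and all genes tested (y axis, with the number of genes). The classes and lists were chosen with earlier results of these data known. The Prp genes (8 of 12) and the Prp19 complex list (8 of 13) hold the widest red segments, against 24.3% of all genes tested; the snRNP and U2af pairs are not drawn.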

How the data were processed

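Per the labels, total RNA of 3 replicates per genotype was labelled with Cy3 or Cy5, with a dye swap of replicate 1. Per the file headers, Feature Extraction 10.1.1.1 of Agilent made the spot values; the authors' deposited files hold linear intensities of each spot (median signal, background and processed signal) and log10 ratios of Cy5 over Cy3, which served as a check. The authors' value table holds log2 ratios that equalled the processed Cy5 over Cy3, sign turned on the dye swap, within 2.85e-06. By the labelled dyes it is w1118 over mir-3 ectopic, not centred (medians -0.11, -0.07, 0.11 and -0.15).

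Median signals were background-corrected with normexp (offset 50) and loess-normalised within each array in limma 3.58.1 (R 4.3.3, statmod 1.5.0), with control spots at weight 0. Outlier-flagged spots were dropped (107 to 173 per array), spots of a probe averaged, and probes kept if well above background for either genotype on at least 3 of 4 arrays (19737 of 32162). A gene is the mean of its kept probes, and the arrays of replicate 1 were averaged before lmFit and eBayes. Symbols came from RefSeq's gene table for Release 6; the members' probes all matched by locus tag. The number of arrays limits the precision. The fits were tested on simulated data.

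The members and lists were chosen with earlier results of these data known. All members may be named, and of other lists up to 4 called genes with the smallest p; 1 such gene is not reported here. The planned promoter and protein descriptions were not run, as no sequence table was used here.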

Additional observations from a re-analysis of the deposited data

Results flagged for a closer look

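In 2 of the 32 spliceosome genes, 1 of the 4 arrays lay far from the other 3 by Dixon's criterion, which chance alone meets in about 1 of 20 groups, and in both it was the dye-swap array. LSm7 had a log2 ratio of -1.93 there, against -1.72 to -1.68 on the other arrays, so that it was lower in mir-3 ectopic embryos on all of them. snRNP-U1-C had 0.14 there, against 0.0046 to 0.02 on the other arrays, and was not called.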

How the results depend on the processing

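Against 12 genes higher and 5 lower, the higher count was 7 from the processed signals. The authors' value table, which holds almost the same ratios, also gave 7. The higher count was 5 with no replicate block (channels of an array unpaired) and 4 with the dye swap alone for replicate 1. The lower count was 9 with the dye as a term and 9 without the dye-swap array (chosen after seeing the data). Median centring left 0 higher and 0 lower. Leaving out 1 replicate gave 6 to 11 higher and 3 to 9 lower, with the lowest counts without replicate 3 and 9 lower without replicate 1. The Sm median moved from -0.09 to -0.17 with the processed signals, -0.17 with the authors' table and -0.046 with the dye term. The SF3 median moved from -0.0067 to 0.13 with the processed signals, 0.13 with the authors' table, -0.0479 with median centring and 0.0255 without the dye-swap array. The Prp median moved from 0.18 to 0.0943 with the processed signals and the authors' table. No called gene changed sign under the 16 alternatives; 12 values not called on either side did. The cause of these shifts was not tested. The arrays pair the genotypes by hybridisation, so the paired ratio is the main fit. Of the 43 probes, 42 were well above background in both channels on all 4 arrays. The dimmer probes of Sf3a1 and Sf3b1 had mean log2 signals of 7.99 and 8.07. Their ratios were 0.34 and 0.33, against 0.15 and 0.15 for the brighter probes. On the dye swap the dimmer probes gave -0.02 and -0.11, and the brighter ones 0.18 and 0.03. By limma on the brightest probe alone both genes stayed higher (adjusted p = 0.0389 and 0.035).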
